A study of Homo sapiens with 40 samples.

Results

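The 9 transmembrane adenylyl cyclases, ADCY1 to ADCY9, were followed in 40 RNA libraries of 2 human breast cancer cell lines. They are 9 of the 44584 gene names in the count table, taken by exact gene name, and were selected on a measured value, the fall of ADCY2 after ligand in both lines. For that reason the ligand effects of ADCY2 are given below as values with no test, and tests are given for the other 8 genes and for ADCY2 at baseline. BT474 is a HER2-positive line that responds to trastuzumab, and BT474R is a resistant derivative, clone 5 of BT474 cells grown in trastuzumab, so that the resistant state is represented by 1 clone. Both lines were starved in 0.1% serum before treatment. Cells were taken at T0, or after 1 h, 12 h or 24 h with 50 ng/mL EGF, 10 ng/mL HRG (heregulin) or vehicle (water), which gives 10 groups per line and 20 in all, each with 2 libraries. The methods describe the treatments as done in duplicate, without saying that duplicates were cultured or treated on separate days, so p-values measure the spread between these libraries, which may be technical.

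Adenylyl cyclases sit in the plasma membrane and turn ATP into the second messenger cAMP. All of the 9 are stimulated by the G protein alpha subunit Gs, and they differ in their other inputs: ADCY1, ADCY3 and ADCY8 form the group stimulated by calcium and calmodulin, ADCY2, ADCY4 and ADCY7 the group stimulated by G protein beta-gamma subunits, and ADCY5 and ADCY6 the group inhibited by calcium, while ADCY9 is known for its weak response to forskolin. The cAMP they make acts through protein kinase A, the exchange factors of the EPAC family and cyclic nucleotide gated channels, and is removed by phosphodiesterases. EGF binds the receptor EGFR, and HRG binds HER3 and HER4, partners of HER2.

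ADCY2 lies on chromosome 5 at 7396138 to 7830081 (plus strand), ADCY3 on chromosome 2 at 24819169 to 24920237 (minus strand), ADCY5 on chromosome 3 at 123282296 to 123449090 (minus strand) and ADCY6 on chromosome 12 at 48766194 to 48789089 (minus strand), all in GRCh38 and GENCODE v44. The promoters of ADCY2, which fell, and of ADCY3 and ADCY5, which rose, are shown as the 250 bases before the start of the main transcript, read 5′ to 3′ on the gene's own strand from RefSeq (GRCh38.p14), at chr5:7395888-7396137 (plus), chr2:24920238-24920487 (minus) and chr3:123449091-123449340 (minus). ADCY6, which fell as well, was not matched in this table. Capitals mark matches on either strand to any of 5 motifs: a full cAMP response element (TGACGTCA), its core (TGACG), which also lies inside the full element, a GC box (GGGCGG), an AP-1 site (TGANTCA) and an EGR site (GCGNGGGCG).
ADCY2: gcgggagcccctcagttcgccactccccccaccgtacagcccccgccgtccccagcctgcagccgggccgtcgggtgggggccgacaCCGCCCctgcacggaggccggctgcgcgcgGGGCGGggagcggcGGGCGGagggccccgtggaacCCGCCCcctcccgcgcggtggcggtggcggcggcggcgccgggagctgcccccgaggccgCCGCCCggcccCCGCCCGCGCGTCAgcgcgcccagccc
ADCY3: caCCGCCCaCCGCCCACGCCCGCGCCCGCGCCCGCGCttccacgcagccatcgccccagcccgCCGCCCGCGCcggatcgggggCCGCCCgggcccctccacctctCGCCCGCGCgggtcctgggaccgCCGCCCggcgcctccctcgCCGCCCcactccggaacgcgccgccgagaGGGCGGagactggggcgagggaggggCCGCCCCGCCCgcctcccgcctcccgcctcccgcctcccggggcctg
ADCY5: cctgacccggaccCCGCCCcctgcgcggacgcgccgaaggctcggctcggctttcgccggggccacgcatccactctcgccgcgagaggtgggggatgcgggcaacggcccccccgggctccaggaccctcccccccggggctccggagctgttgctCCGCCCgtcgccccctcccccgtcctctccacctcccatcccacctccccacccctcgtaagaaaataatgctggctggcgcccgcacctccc
The ADCY2 window held 6 GC boxes, 1 EGR match and 1 core of the cAMP response element, the EGR match running into a GC box. The ADCY3 window held 9 GC boxes and 6 EGR matches, several of which overlapped each other, and the ADCY5 window held 2 GC boxes. None of the 3 windows held a full cAMP response element or an AP-1 match. Among 35116 RefSeq windows of the same length, 42.6% held a GC box, 21.2% the core, 8.41% an EGR match, 6.57% an AP-1 match and 1.65% the full element. A match is a run of letters and was not tied to binding in these cells.

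The libraries held between 16794594 and 33387936 counts. Luminal markers were high throughout, with ERBB2 between 5990 and 10500 CPM (counts per 1000000 counts of the library, with TMM scaling) and KRT8 between 980 and 2630, whereas GATA3 went down to 10.6 CPM. The leukocyte markers PTPRC, CD3E and CD14 had at most 4 counts in a library and LYZ at most 33 (0.127 to 1.40 CPM). COL1A1, from the fibroblast list, was at 75.0 to 295 CPM while COL1A2, DCN and PDGFRA had at most 4 counts and COL3A1 at most 19, and SYT1, from the neuron list, was at 4.84 to 30.0 CPM. VWF, from the endothelium list, was at 8.61 to 23.0 CPM. The summed neuron list was at 15.7 to 31.5 CPM in BT474 and 10.5 to 15.5 in BT474R, the fibroblast list at 75.1 to 105 and 170 to 295, the endothelium list at 13.3 to 23.2 and 9.30 to 16.7, the leukocyte list at 0.526 to 1.49 and 0.169 to 0.799, and the luminal list at 12200 to 16200 and 11200 to 17800. The part of any of these in the results was not tested. The 2 libraries of HRG-BT474R at 24 h differed most from each other (median chi-square over genes 2.56, against 0.595 to 1.58 in the other groups), and the values of each library there are given for every member.

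At baseline 5 of the 9 cyclases were called between the lines, and 4 when any one T0 library was left out. A gene was called where its adjusted p from the quasi-likelihood test of edgeR, corrected by Benjamini-Hochberg across every gene in the fit, was under 0.05. All genes gave calls at a rate of 46.9% in this comparison of BT474R with BT474 at T0, so the count of 5 is near that of genes in general. ADCY5, a cyclase best known from heart and striatum, was at 1.08 and 0.929 CPM in the T0 libraries of BT474 and at 36.1 and 32.9 CPM in those of BT474R. The difference was 5.08 ± 0.16 on the log2 scale (SE, n = 2 per line, edgeR adjusted p = 2.79e-25), and it was the largest among the 9. ADCY1, known from neurons, was at 10.7 and 11.4 CPM in BT474 and at 46.6 and 54.8 CPM in BT474R (log2 difference 2.21 ± 0.22, edgeR adjusted p = 6.97e-11). ADCY2 was at 2.82 and 3.52 CPM in BT474 and at 8.40 and 8.42 CPM in BT474R (log2 difference 1.42 ± 0.14, edgeR adjusted p = 1.21e-10). ADCY9, on the other hand, was lower in BT474R, at 10.1 and 13.01 CPM against 23.2 and 22.1 CPM (log2 difference -0.96 ± 0.11, edgeR adjusted p = 1.26e-09). The libraries of the lines did not overlap for these 4 genes, nor did they for ADCY4, ADCY6 and ADCY7. How many of all genes showed no overlap was not counted. With any one of the 4 T0 libraries left out, the log2 difference lay between 4.96 and 5.15 for ADCY5 and between 2.04 and 2.28 for ADCY1. For ADCY2 it lay between 1.2 and 1.55, and for ADCY9 between -1.2 and -0.83. ADCY7 was at 2.04 and 1.59 CPM in BT474R and 1.28 and 0.978 CPM in BT474 (log2 difference 0.65 ± 0.27, edgeR adjusted p = 0.042). Its call was lost with DESeq2 (adjusted p = 0.128) and without any one of the T0 libraries (edgeR adjusted p from 0.053 to 0.295). ADCY6 and ADCY3 were not called between the lines (log2 differences 0.12 ± 0.07 and -0.03 ± 0.15, edgeR adjusted p = 0.131 and 0.884). ADCY4 and ADCY8 had at most 5 counts in any T0 library.

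Corrected for transcript length, ADCY6 was the main cyclase in both lines. CPM divided by the length of the MANE transcript in kilobases (RPKM) was used here, since levels of different genes can be compared only per length. At T0, ADCY6 stood at 16.4 ± 0.64 RPKM (SD, n = 2) in BT474 and took 73.4% of the summed RPKM of the 9 genes, ahead of ADCY9 with 12.7%, ADCY3 with 6.18%, ADCY1 with 3.91% and ADCY2 with 2.14%. In BT474R at T0 ADCY6 stood at 17.8 ± 0.56 RPKM and took 56.7%, followed by ADCY5 with 16.6%, ADCY1 with 12.7%, ADCY9 with 4.61%, ADCY3 with 4.23% and ADCY2 with 4.04%. In BT474R the library shares of ADCY3 (3.92% and 4.53%) overlapped those of ADCY9 (4.15% and 5.07%) and those of ADCY2 (4.13% and 3.95%). ADCY9 and ADCY2 did not overlap each other. ADCY2 took a minor share at T0 in both lines. With the union of all annotated exons as the length, its share was 1.11% in BT474 and 2.08% in BT474R at T0.

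**Figure D1:**
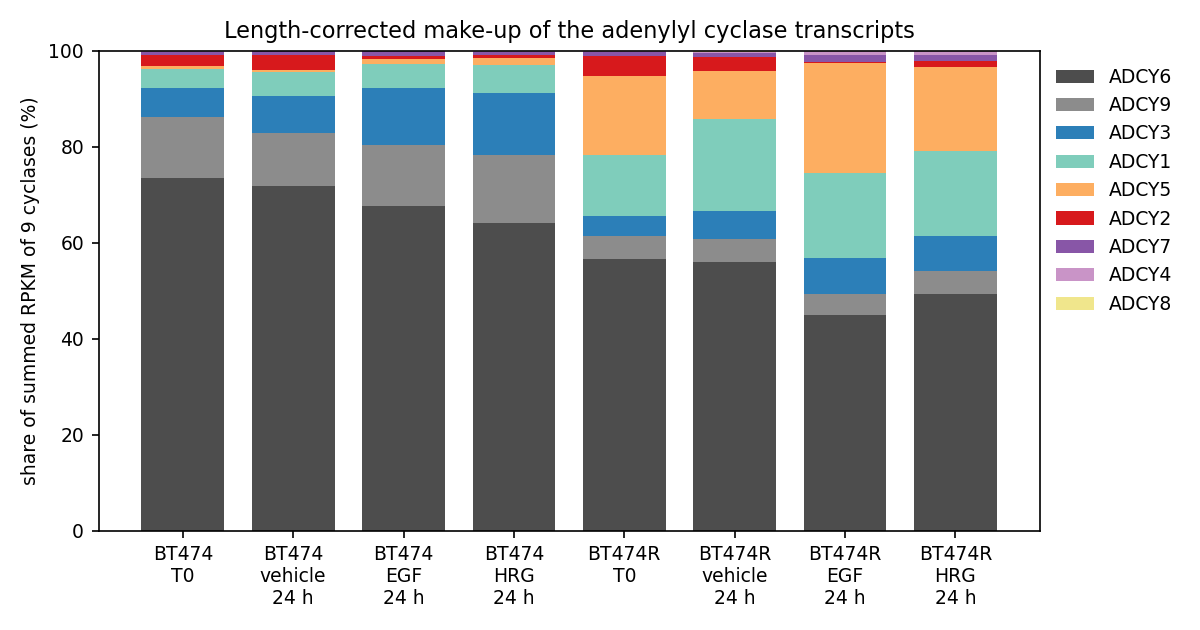
Stacked bars give the mean share (%) of each cyclase in the summed RPKM of the 9 genes for T0 and the 24 h groups of both lines (2 libraries per bar). ADCY6 takes 73.4% at T0 in BT474 and 56.7% in BT474R, ADCY5 grows to 22.8% in EGF-BT474R at 24 h, and ADCY2 (red) shrinks to 0.284% there.

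ADCY2 was lower than vehicle at 12 h and 24 h after both ligands in both lines, and near its T0 level at 1 h. In BT474 the T0 libraries were at 2.82 and 3.52 CPM. At 1 h, vehicle libraries were at 2.93 and 3.03 CPM, EGF libraries at 3.74 and 3.21 CPM and HRG libraries at 3.12 and 2.34 CPM. At 12 h, vehicle libraries were at 4.93 and 4.91 CPM, EGF libraries at 3.08 and 2.54 CPM and HRG libraries at 2.59 and 2.67 CPM. At 24 h, vehicle libraries were at 5.41 and 4.48 CPM, whereas EGF libraries were at 0.970 and 0.996 CPM and HRG libraries at 0.808 and 0.819 CPM. From 12 h on, every ligand library of BT474 lay below every vehicle library. In raw counts the 24 h values were 115 and 118 with vehicle, 26 and 22 with EGF, and 24 and 20 with HRG, so the low groups lay above the limit of 3 counts used here for detection.

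In BT474R the T0 libraries were at 8.40 and 8.42 CPM. At 1 h, vehicle libraries were at 8.54 and 8.58 CPM, EGF libraries at 9.33 and 9.06 CPM and HRG libraries at 7.79 and 8.59 CPM. At 12 h, vehicle libraries were at 10.5 and 9.03 CPM, HRG libraries at 5.58 and 4.43 CPM and EGF libraries at 2.75 and 2.80 CPM. By 24 h, vehicle libraries were at 5.995 and 6.07 CPM, HRG libraries at 2.33 and 2.35 CPM and EGF libraries at 0.611 and 0.570 CPM. HRG and EGF libraries did not overlap with each other or with vehicle at 12 h or 24 h in BT474R, and EGF was the lowest at both times. In raw counts the 24 h values were 156 and 129 with vehicle, 50 and 50 with HRG, and 14 and 14 with EGF.

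**Figure D2:**
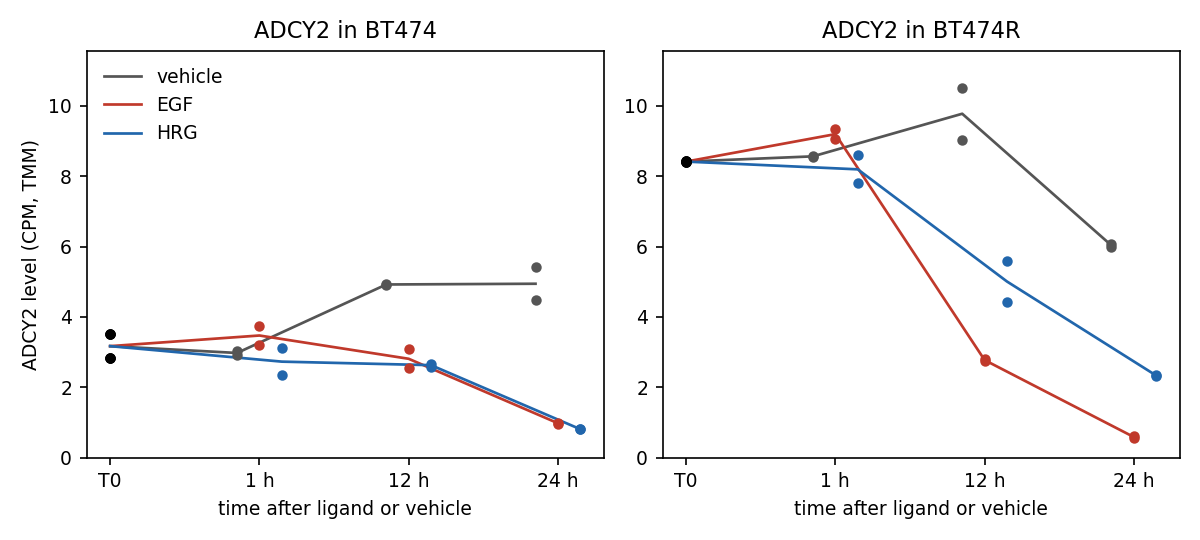
Points are the ADCY2 level (CPM with TMM factors) of single libraries and lines join group means (n = 2) of vehicle, EGF and HRG from T0 to 24 h in BT474 (left) and BT474R (right). Vehicle ends at 4.94 CPM in BT474 and 6.03 in BT474R, while EGF ends at 0.983 and 0.590 and HRG at 0.814 and 2.34.

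Ordered by group mean, the ADCY2 level in BT474 ran from vehicle at 24 h (4.94 ± 0.66 CPM, SD, n = 2) and vehicle at 12 h (4.92 ± 0.01) through EGF 1 h (3.47 ± 0.37), T0 (3.17 ± 0.49), vehicle 1 h (2.98 ± 0.07), EGF 12 h (2.81 ± 0.38), HRG 1 h (2.73 ± 0.55) and HRG 12 h (2.63 ± 0.06) to EGF 24 h (0.983 ± 0.019) and HRG 24 h (0.814 ± 0.008). Neighbours from EGF 1 h down to HRG 12 h overlapped, as did both late vehicle groups, while EGF 24 h and HRG 24 h did not overlap each other or any other group. In BT474R the order was vehicle 12 h (9.77 ± 1.04), EGF 1 h (9.19 ± 0.19), vehicle 1 h (8.56 ± 0.03), T0 (8.41 ± 0.02), HRG 1 h (8.19 ± 0.57), vehicle 24 h (6.03 ± 0.05), HRG 12 h (5.01 ± 0.81), EGF 12 h (2.78 ± 0.04), HRG 24 h (2.34 ± 0.01) and EGF 24 h (0.590 ± 0.029). Vehicle 12 h overlapped EGF 1 h, and HRG 1 h overlapped T0 and vehicle 1 h. From vehicle 24 h downward no neighbouring groups overlapped.

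Against vehicle of the same time, the fitted ADCY2 change was 0.20 ± 0.17 (log2, SE) for EGF-BT474 and -0.13 ± 0.19 for HRG-BT474 at 1 h, -0.82 ± 0.17 and -0.93 ± 0.16 at 12 h, and -2.33 ± 0.21 and -2.61 ± 0.21 at 24 h. It was 0.10 ± 0.11 for EGF-BT474R and -0.06 ± 0.12 for HRG-BT474R at 1 h, -1.81 ± 0.14 and -0.97 ± 0.12 at 12 h, and -3.34 ± 0.20 and -1.35 ± 0.15 at 24 h. In group means this is a level 5.03-fold lower for EGF-BT474, 6.08-fold lower for HRG-BT474, 10.2-fold lower for EGF-BT474R and 2.58-fold lower for HRG-BT474R at 24 h. The 1 h change of HRG-BT474 was -0.33 without HRG library 1 and 0.053 without HRG library 2, so it had no stable direction. That of HRG-BT474R was 0.015 without HRG library 1 and -0.13 without HRG library 2. These values chose the members and were not tested. EGF and HRG were each compared with the same vehicle libraries, so the values for both ligands share their controls.

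The HRG and EGF values of ADCY2 were close to each other in BT474, while the EGF level was the lower one in BT474R. Each ligand was given at a single dose, and the doses differ. In BT474 the HRG change minus the EGF change was -0.11 ± 0.19 at 12 h and -0.28 ± 0.29 at 24 h on the log2 scale, but in BT474R it was 0.83 ± 0.15 and 1.99 ± 0.24. The EGF change in BT474R minus that in BT474 was -1.01 ± 0.21 at 12 h and -1.03 ± 0.32 at 24 h, and the HRG change minus that in BT474 was -0.06 ± 0.20 and 1.22 ± 0.26. Vehicle libraries also changed over time. Without ligand, ADCY2 went from 3.17 ± 0.49 CPM at T0 to 4.94 ± 0.66 at 24 h in BT474 (log2 change 0.65 ± 0.17), and from 8.41 ± 0.02 to 6.03 ± 0.05 in BT474R (-0.47 ± 0.13). The part of these vehicle changes in the differences between the lines was not tested. Against T0 of the same line, the 24 h EGF and HRG libraries of both lines were lower in each case. These values, too, belong to the choice of the genes and carry no test.

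Among the other 8 cyclases, none was called at 1 h, and at 12 h and 24 h between 0 and 3 were called in a comparison. At 1 h, 0 of 8 were called in EGF-BT474, HRG-BT474, EGF-BT474R and HRG-BT474R, by edgeR and by DESeq2. Over all genes the share called at 1 h was 2.19%, 2.77%, 0.457% and 0.169%, and 3, 1, 0 and 0 of the 8 had an unadjusted p under 0.05. At 12 h, 2 of 8 were called in EGF-BT474 (16.0% of all genes), 2 in HRG-BT474 (25.8%), 2 in EGF-BT474R (12.0%) and 0 in HRG-BT474R (4.12%), where 2 had an unadjusted p under 0.05 and DESeq2 called 0. At 24 h, 2 of 8 were called in EGF-BT474 (16.4%), 3 in HRG-BT474 (24.1%), 3 in EGF-BT474R (17.3%) and 2 in HRG-BT474R (2.78%). The last count was 0 without vehicle library 1 and 4 without HRG library 1. Single libraries also took the count to 1 in EGF-BT474 at 12 h (EGF library 2) and 24 h (vehicle library 2), and in EGF-BT474R at 12 h (vehicle library 1 or either EGF library). With so few genes, nothing is read from these counts about the family as a whole. The median log2 change of the 8 at 24 h was 0.01 in EGF-BT474, 0.16 in HRG-BT474, 0.10 in EGF-BT474R and 0.03 in HRG-BT474R, against medians of all genes of -0.02, -0.02, -0.01 and 0.01. All 9 genes passed the filter on low counts in both lines.

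ADCY6 fell with ADCY2, but by far less on the log2 scale. In BT474 the vehicle libraries were at 100.3 and 104.8 CPM at 12 h and 102.3 and 110.0 CPM at 24 h. EGF libraries were at 90.3 and 83.8 CPM and then 94.5 and 82.9 CPM, and HRG libraries at 87.2 and 82.3 CPM and then 88.4 and 81.9 CPM. In BT474R the vehicle libraries were at 110.0 and 99.0 CPM at 12 h and 110.3 and 108.4 CPM at 24 h. EGF libraries were at 82.0 and 77.5 CPM and then 80.1 and 91.4 CPM, and HRG libraries at 95.3 and 88.3 CPM and then 86.4 and 85.4 CPM. Every ligand library at 12 h and 24 h lay below every vehicle library of its time and line, in all 8 comparisons. The log2 changes were between -0.20 and -0.39 and 7 of the 8 were called (edgeR), the exception being HRG-BT474R at 12 h (-0.20 ± 0.07, adjusted p = 0.0984). At 24 h the change was -0.27 ± 0.06 in EGF-BT474, -0.34 ± 0.06 in HRG-BT474, -0.35 ± 0.07 in EGF-BT474R and -0.33 ± 0.07 in HRG-BT474R (edgeR adjusted p = 0.000476, 7.87e-06, 0.000634 and 0.00759). The HRG-BT474R call at 24 h was lost without vehicle library 1 (edgeR adjusted p = 0.0871), and the EGF-BT474 call at 12 h without EGF library 2 (0.0554). With only the 4 libraries compared in the fit, the HRG-BT474R call at 24 h was lost as well (-0.35 ± 0.08, edgeR adjusted p = 0.943). ADCY6 and ADCY2 were the only members with values below 0 in all 8 late comparisons. Whether the ADCY2 change differed from that of ADCY6 was not tested, since ADCY2 was picked for its size.

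ADCY3, best known from olfactory neurons, rose in BT474. Its vehicle libraries there were at 7.003 and 6.87 CPM at 12 h and 9.93 and 8.69 CPM at 24 h. EGF libraries were at 10.7 and 10.3 CPM and then 12.2 and 12.99 CPM, and HRG libraries at 10.3 and 9.86 CPM and then 14.7 and 13.2 CPM. All ligand libraries lay above all vehicle libraries of their time. The rise was 0.58 ± 0.11 and 0.43 ± 0.11 (log2) with EGF and 0.51 ± 0.11 and 0.57 ± 0.10 with HRG at 12 h and 24 h (edgeR adjusted p = 0.000253, 0.00323, 0.000529 and 4.41e-05), and the EGF call at 24 h was lost without vehicle library 2 (adjusted p = 0.0997). In BT474R at 24 h the libraries were at 9.11 and 9.31 CPM with vehicle, 12.65 and 10.6 CPM with EGF and 12.3 and 8.68 CPM with HRG, the HRG libraries lying on both sides of vehicle. The changes in BT474R at 12 h and 24 h lay between 0.15 and 0.33 and none was called (edgeR adjusted p from 0.123 to 0.709). The difference between the lines was itself not called (edgeR adjusted p from 0.27 to 0.875 over both ligands and times), so the data do not show that the lines differ. CENPO, a kinetochore gene whose exons overlap those of ADCY3 on the other strand, rose in the same 4 comparisons of BT474 (log2 0.47, 0.30, 0.55 and 0.37) and in EGF-BT474R at 24 h (0.25 ± 0.08, edgeR adjusted p = 0.0228). The strand setting of the counting was not stated, so reads of ADCY3 and CENPO may not have been told apart. Unnamed long noncoding RNA genes of GENCODE v44 on the other strand also span exons of ADCY2, ADCY5 and ADCY6. They were not found under their identifiers in the count table, and their part in these counts was not tested.

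ADCY5, of the group inhibited by calcium, lay above vehicle at 24 h in all 4 comparisons and was called in 3 of them. In BT474, where it was low, the 24 h libraries were at 0.894 and 1.06 CPM with vehicle, 1.34 and 1.54 CPM with EGF and 2.32 and 2.17 CPM with HRG. The rise was called with HRG (log2 1.17 ± 0.24, edgeR adjusted p = 0.000233) and not with EGF (0.53 ± 0.26, adjusted p = 0.194), and the difference between the ligands was not called (0.64 ± 0.22, adjusted p = 0.223). At 12 h its changes in BT474 were -0.43 ± 0.26 with EGF and -0.24 ± 0.24 with HRG, not called (adjusted p = 0.319 and 0.538). In BT474R, where it was high, the 24 h libraries were at 20.2 and 22.1 CPM with vehicle, 46.8 and 48.1 CPM with EGF and 28.8 and 37.1 CPM with HRG. Here EGF stood above HRG and both above vehicle. The log2 rise was 1.16 ± 0.11 with EGF (edgeR adjusted p = 5.12e-08) and 0.65 ± 0.11 with HRG (adjusted p = 0.0019), with a called difference between HRG and EGF of -0.51 ± 0.10 (adjusted p = 0.00291). With only the 4 libraries compared in the fit, the HRG rise (0.63 ± 0.14, edgeR adjusted p = 0.943) and the difference between the ligands (-0.52 ± 0.13, adjusted p = 0.326) kept their size and lost their calls. At 12 h in BT474R the libraries were at 31.7 and 34.2 CPM with vehicle, 43.5 and 44.7 CPM with EGF and 39.8 and 38.3 CPM with HRG. The EGF rise at 12 h was 0.42 ± 0.10 (edgeR adjusted p = 0.00794), and it lost its call when vehicle library 1 or either EGF library was left out (adjusted p from 0.0523 to 0.102). The 12 h change with HRG was not called (0.23 ± 0.10, adjusted p = 0.26), and the HRG rise at 24 h lost its call without vehicle library 1 (0.0604). Vehicle itself declined in BT474R from 36.1 and 32.9 CPM at T0 to the 24 h level (log2 -0.69 ± 0.11, edgeR adjusted p = 0.000219), so EGF libraries at 24 h were above T0 by less than they were above vehicle, and HRG libraries spanned the T0 level.

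**Figure D3:**
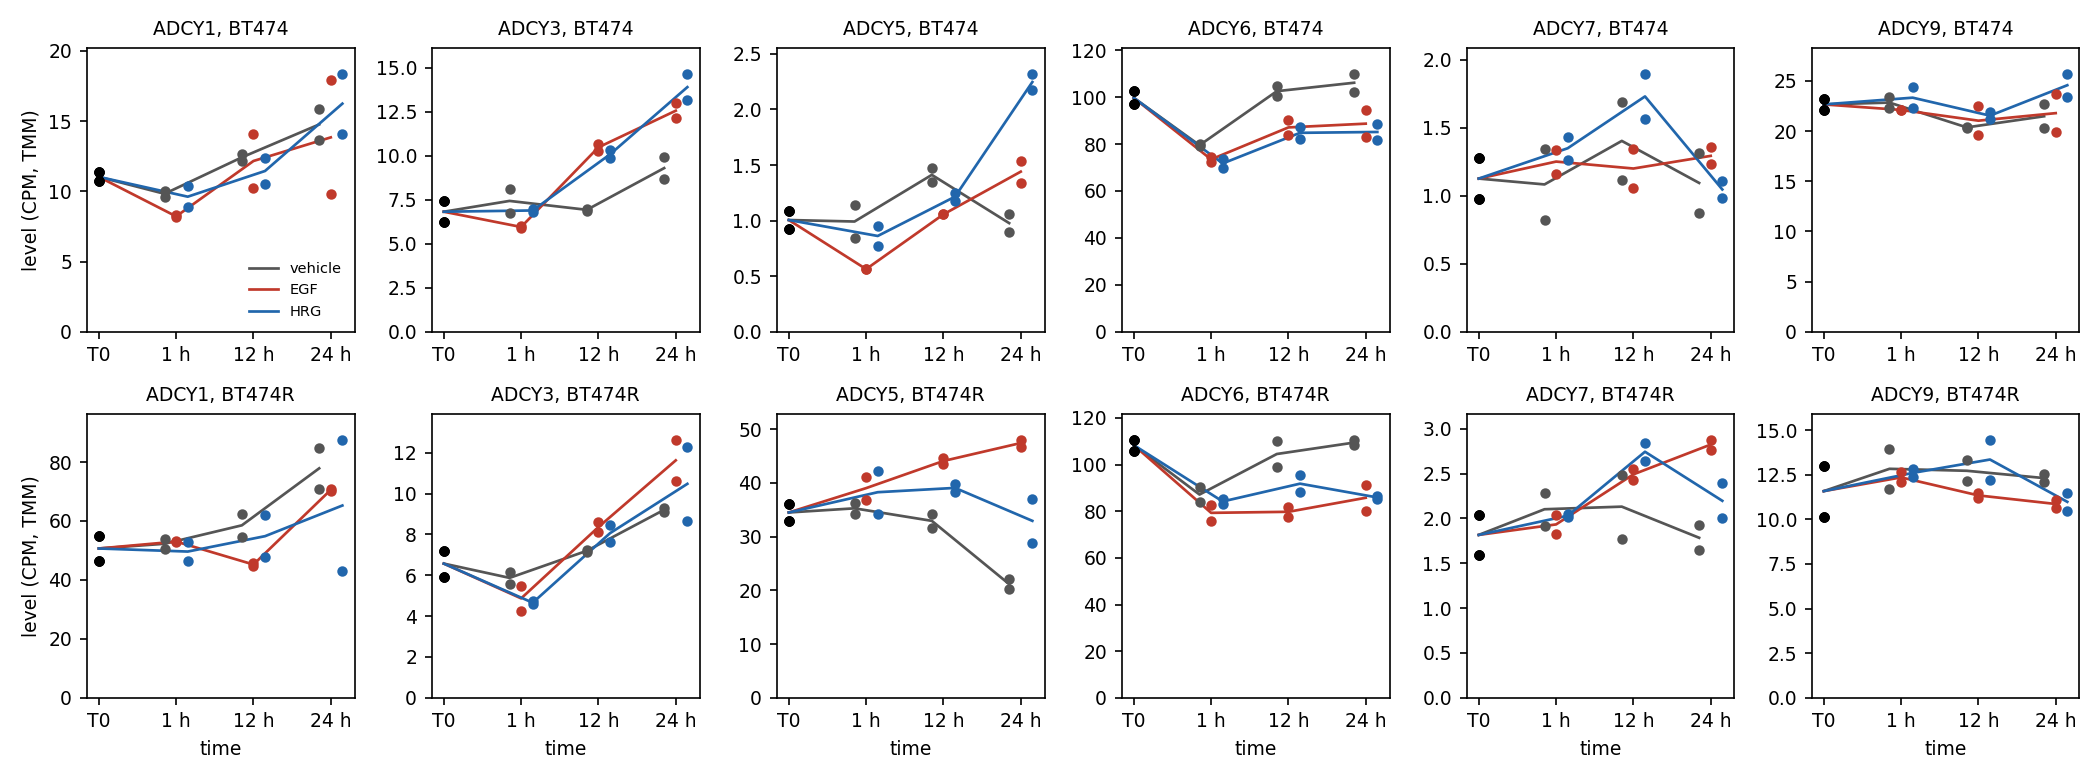
Points are single libraries and lines group means (CPM with TMM factors) of 6 other cyclases from T0 to 24 h, BT474 in the upper and BT474R in the lower row, with axes that start at 0 and differ between panels. ADCY6 lies below vehicle after both ligands, ADCY3 above it in BT474, and ADCY5 in BT474R goes to 47.4 CPM with EGF as vehicle goes to 21.2 CPM at 24 h.

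ADCY7, a cyclase known from blood cells, was called in 1 of the 12 ligand comparisons. In BT474R at 24 h it was at 1.92 and 1.65 CPM with vehicle, 2.88 and 2.77 CPM with EGF and 2.00 and 2.39 CPM with HRG. The EGF rise was 0.65 ± 0.20 (log2, edgeR adjusted p = 0.0294), and the call was lost with DESeq2 (adjusted p = 0.105) and without any one of the 4 libraries compared (edgeR adjusted p from 0.0713 to 0.136). BRD7, a bromodomain gene that overlaps ADCY7 on the other strand, rose by 0.19 ± 0.06 in the same comparison (adjusted p = 0.032). ADCY1 and ADCY9 were not called by ligand in any of the 12 comparisons. ADCY9 varied little, between 19.6 and 25.7 CPM over the 20 libraries of BT474 and between 10.1 and 14.5 CPM in BT474R, with late log2 changes from -0.18 to 0.18. Its HRG-BT474R libraries at 24 h were at 10.5 and 11.5 CPM. ADCY1 varied between replicates, as with 87.6 and 42.9 CPM in HRG-BT474R and 17.9 and 9.78 CPM in EGF-BT474 at 24 h, and its late log2 changes lay between -0.37 and 0.13.

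ADCY4 in BT474 and ADCY8 in both lines were at or near the detection limit, and ADCY4 was low in BT474R. ADCY4 had at most 3 counts in every library of BT474 and between 1 and 29 counts in BT474R, where it was at 0.960 and 0.977 CPM with EGF and 0.465 and 1.36 CPM with HRG at 24 h, against 0.231 and 0.517 CPM with vehicle (log2 changes 1.40 ± 0.53 and 1.33 ± 0.54, edgeR adjusted p = 0.0716 and 0.235). The table holds a second row with the name ADCY4 and a number added, which had up to 80 counts and is not among the members. Summed with it, ADCY4 was called at T0 between the lines (log2 2.40 ± 0.89, edgeR adjusted p = 0.0242), while ADCY7 was then not called. In HRG-BT474 at 12 h the summed rows were called lower (edgeR adjusted p = 0.0151), although the HRG libraries held 1 and 0 counts there. ADCY8, known from brain, had 0 to 8 counts in a library (2 and 1 in HRG-BT474R at 24 h), and no difference was detectable at this depth.

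**Figure D4:**
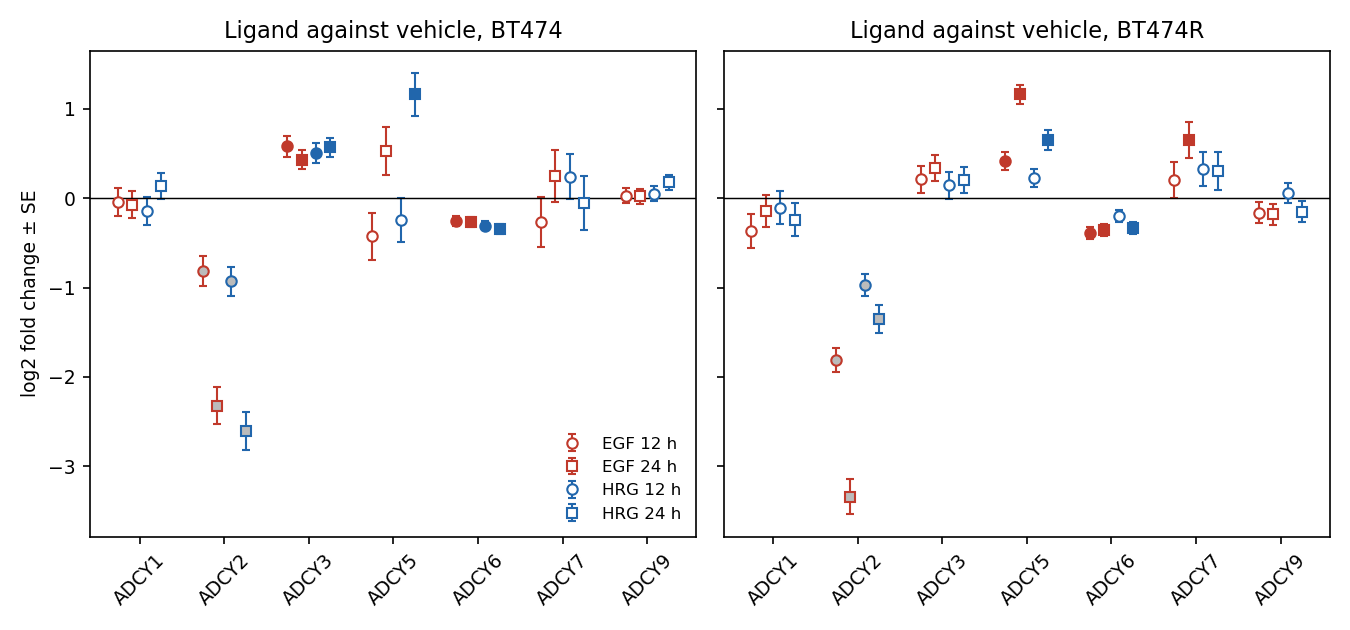
Fitted log2 fold changes of ligand against vehicle (± SE) are plotted for 7 cyclases in BT474 (left) and BT474R (right), circles for 12 h and squares for 24 h, filled where edgeR made a call and grey for ADCY2, which was not tested. ADCY2 reaches -3.34 with EGF-BT474R at 24 h, ADCY6 lies between -0.20 and -0.39, and ADCY5 reaches 1.17 and 1.16.

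The ligands and the lines were also compared directly for the 8 genes other than ADCY2. Between HRG and EGF, 0 of 8 were called in BT474 at 12 h (2.17% of all genes) and at 24 h (0.768%), 0 in BT474R at 12 h (1.42%), and 1, ADCY5, in BT474R at 24 h (5.18%). The unadjusted p was under 0.05 for 0, 1 and 1 genes in the 3 comparisons without a call, in which DESeq2 called 0 as well. The ligand effects in BT474R minus those in BT474 gave 0 calls of 8 for EGF at 12 h and 24 h (1.96% and 4.01% of all genes) and for HRG at 12 h and 24 h (4.07% and 3.33%), by edgeR and by DESeq2. The unadjusted p was under 0.05 for 2, 1, 0 and 3 of the 8. Without HRG library 1 of BT474R at 24 h, edgeR called 2 of 8 for HRG at 24 h.

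Without ligand, 24 h against T0, ADCY3 moved in the same direction in both lines. In BT474, 1 of 8 was called (11.4% of all genes), ADCY3, which went from 6.23 and 7.43 CPM to 9.93 and 8.69 CPM (log2 0.45 ± 0.12, edgeR adjusted p = 0.00806). In BT474R, 3 of 8 were called (13.7%). These were ADCY5 (above), ADCY1, which went from 46.6 and 54.8 CPM to 84.8 and 70.9 CPM (log2 0.63 ± 0.19, edgeR adjusted p = 0.0298), and ADCY3, which went from 5.94 and 7.21 CPM to 9.11 and 9.31 CPM (0.49 ± 0.16, adjusted p = 0.0457). With DESeq2, only ADCY5 was called in BT474R. The ADCY3 call in BT474 was lost without T0 library 1 or vehicle library 1, the ADCY3 call in BT474R without any one of the 4 libraries, and the ADCY1 call without either T0 library or vehicle library 1 (edgeR adjusted p from 0.07 to 0.334). CENPO, which overlaps ADCY3, rose in both comparisons too (log2 0.23 ± 0.07 and 0.34 ± 0.08, edgeR adjusted p = 0.0147 and 0.00559).

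By 24 h the length-corrected make-up of the family had shifted while its sum moved less. The RPKM of the 9 genes summed to 24.1 and 24.4 with vehicle, 22.9 and 20.1 with EGF and 22.8 and 20.8 with HRG in BT474, and to 32.5 and 31.6, 30.5 and 32.1, and 30.1 and 27.3 in BT474R. The sum was lower than vehicle in every ligand library of BT474 and in the HRG libraries of BT474R, and overlapped vehicle in EGF-BT474R. ADCY6 was the largest part of each of these sums, with 71.8% for vehicle, 67.6% for EGF and 64.1% for HRG in BT474 and 56.0%, 44.9% and 49.3% in BT474R. The share of ADCY2 was 3.07% with vehicle, 0.691% with EGF and 0.563% with HRG in BT474, and 2.83%, 0.284% and 1.23% in BT474R. The share of ADCY5 in BT474R was 9.95% with vehicle, 22.8% with EGF and 17.4% with HRG. ADCY3 took 7.76%, 11.9% and 12.9% in BT474. In bulk RNA, fewer cells with a transcript and less transcript per cell cannot be told apart.

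The 5 genes whose pattern was most like that of ADCY2 were found by Pearson's r of group mean log2 CPM, centred within each line, over the 20 groups and 13900 genes with a mean of at least 1 CPM. They were SNAP47, a SNARE protein (r = 0.965), MIPEP, a mitochondrial peptidase (0.963), PLXDC2, a membrane protein (0.95), MCCC2, an enzyme of leucine breakdown (0.947), and MTURN (0.938). The points share libraries and depth within a group, and r is a description. All 5 were more abundant than ADCY2 (mean 26.0 to 237 CPM) and changed by less, with log2 changes at 24 h from -0.11 to -0.61 in EGF-BT474 and from -0.34 to -1.18 in EGF-BT474R. Among the cyclases, ADCY6 had an r of 0.301 and ADCY9 of 0.284 with ADCY2, and ADCY3 had -0.767, ADCY5 -0.489, ADCY7 -0.396 and ADCY1 -0.381. The nearest protein-coding genes to ADCY2 on chromosome 5 that were well measured changed little. They are not all close to it: SRD5A1 lies 721752 and TENT4A 639094 bases before ADCY2, and MTRR 20778 bases beyond it. SRD5A1, a steroid reductase on the upstream side, changed by -0.25 to 0.09 on the log2 scale over the 8 late comparisons, TENT4A, a poly(A) polymerase, by 0.08 to 0.15, and MTRR, methionine synthase reductase, by -0.07 to 0.16. Of these, SRD5A1 alone was called, in EGF-BT474R at 12 h and 24 h (edgeR adjusted p = 0.014 and 0.0073). CFAP90, 297 bases beyond ADCY2 and in the table under its older name C5orf49, had at most 0.252 CPM.

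The cAMP pathway around the cyclases was described by 8 lists with 101 genes, of which 95 were tested in BT474 and 90 in BT474R. At 1 h, 2 genes were called in EGF-BT474, 2 in HRG-BT474 and 0 in EGF-BT474R and HRG-BT474R by edgeR (where 5 and 4 had an unadjusted p under 0.05, and DESeq2 called 0). At 12 h, 14 were called in EGF-BT474 (6 up, 8 down), 30 in HRG-BT474 (12 up, 18 down), 16 in EGF-BT474R (7 up, 9 down) and 7 in HRG-BT474R (3 up, 4 down). At 24 h, 15 were called in EGF-BT474 (7 up, 8 down), 19 in HRG-BT474 (9 up, 10 down), 30 in EGF-BT474R (12 up, 18 down) and 5 in HRG-BT474R (2 up, 3 down). At 12 h, 14.7%, 31.6%, 17.8% and 7.78% of the tested list genes were called in EGF-BT474, HRG-BT474, EGF-BT474R and HRG-BT474R. Of all genes, 16.0%, 25.8%, 12.0% and 4.12% were called there. At 24 h the list shares were 15.8% in EGF-BT474, 33.3% in EGF-BT474R and 5.56% in HRG-BT474R, against 16.4%, 17.3% and 2.78% of all genes. In HRG-BT474 at 24 h, 19 of 95 were called, against 24.1% of all genes. Whether the lists stood apart from genes in general was not tested. The median log2 change over the lists at 24 h was 0.01, -0.05, 0.04 and 0.04. Many of the list counts changed when a library was left out. In HRG-BT474, EGF-BT474R and HRG-BT474R at 12 h and in EGF-BT474R at 24 h, leaving out any one library lowered the count. In these comparisons the loss is therefore not tied to a particular library. Only the larger moves follow. At 12 h, EGF-BT474 had 9 without vehicle library 1, and HRG-BT474 had 18 without HRG library 1. EGF-BT474R had 10 without vehicle library 1 and 8 without EGF library 1, and HRG-BT474R had 3 without vehicle library 2 and 4 without HRG library 2. At 24 h, EGF-BT474R had 16 without vehicle library 1 and 17 without EGF library 2. HRG-BT474R had 1 without vehicle library 1, 9 without vehicle library 2 and 18 without HRG library 1.

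Upstream of the cyclases, the stimulatory receptors gave 0 to 1 genes up and 1 to 3 down in the late comparisons. At 24 h, 2 of 16 were called in EGF-BT474, 3 of 16 in HRG-BT474, 3 of 12 in EGF-BT474R and 2 of 12 in HRG-BT474R, where 16.4%, 24.1%, 17.3% and 2.78% of all genes were called. GPER1, the G protein-coupled estrogen receptor (mean 8.38 CPM), fell in all 8, with log2 changes from -0.65 to -1.52. VIPR1, a receptor for vasoactive intestinal peptide, fell in the 4 comparisons at 24 h (-0.25, -0.33, -0.69 and -0.50) and rose in HRG-BT474 at 12 h (0.17). Of the 9 G protein alpha subunits, 1 was called in EGF-BT474 and 4 in HRG-BT474 at 12 h, and 0 in BT474R with either ligand. At 24 h, 1 was called in EGF-BT474, 1 in HRG-BT474, 1 in EGF-BT474R and 0 in HRG-BT474R. Among them, GNAZ, which inhibits cyclases, rose in the 4 late comparisons of BT474 (0.54 to 0.75). The GNAZ values in BT474R lay between 0.01 and 0.28. Of the phosphodiesterases, which break down cAMP, 15 were tested in BT474 and 14 in BT474R. At 24 h, 3 rose and 1 fell in EGF-BT474 and in HRG-BT474, and 4 rose and 3 fell in EGF-BT474R. In HRG-BT474R, 0 were called at 12 h and 0 at 24 h. The shares of all genes called at 24 h are those given above for the receptors. Whether the phosphodiesterases stood apart from genes in general was not tested. PDE4B rose in all late comparisons of BT474 and in EGF-BT474R (0.69 to 1.23), and PDE8A rose in 5 of 8 (0.33 to 0.52 where called).

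Downstream, 1 to 4 of the 10 genes of the protein kinase A list fell and 0 to 2 rose in a late comparison. At 24 h, 1 of 10 was called in EGF-BT474, 1 in HRG-BT474, 5 in EGF-BT474R and 1 in HRG-BT474R. Of all genes, 16.4%, 24.1%, 17.3% and 2.78% were called there. Whether the protein kinase A list stood apart from genes in general was not tested. PKIA, a protein inhibitor of protein kinase A (mean 68.3 CPM), fell in 7 of 8, by up to -1.15 in HRG-BT474 at 24 h, and PRKACB, a catalytic subunit, fell in 4 of 8 (-0.30 to -0.38). Of the 12 A-kinase anchoring proteins, 3 fell and 1 rose in EGF-BT474 at 24 h, 5 fell and 2 rose in HRG-BT474, 4 fell and 1 rose in EGF-BT474R and 1 rose in HRG-BT474R. These are 33.3%, 58.3%, 41.7% and 8.33% of that list, beside the same shares of all genes as above, and whether the list stood apart was not tested. MAP2 fell in 6 of 8 comparisons, and AKAP12 and AKAP6 in 4 each, at mean levels of 4.45, 1.24 and 1.42 CPM. RAPGEF3, which encodes EPAC1, rose in 6 of 8, by 1.93 ± 0.13 in EGF-BT474R at 24 h (edgeR adjusted p = 8.1e-10). Of the CREB factors and coactivators, which number 13, between 0 and 3 were called in a late comparison. At 24 h these were 0% in EGF-BT474, 7.69% in HRG-BT474, 23.1% in EGF-BT474R and 0% in HRG-BT474R, beside the same shares of all genes. Among the other cyclases, GUCY1A2, a subunit of the soluble guanylyl cyclase that makes cGMP (mean 122 CPM), rose in 7 of 8, by up to 1.25 in HRG-BT474 at 24 h. The soluble adenylyl cyclase ADCY10 was low, as with 0.696 and 0.391 CPM at T0 in BT474 and 0.780 and 0.749 CPM in BT474R.

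**Figure D5:**
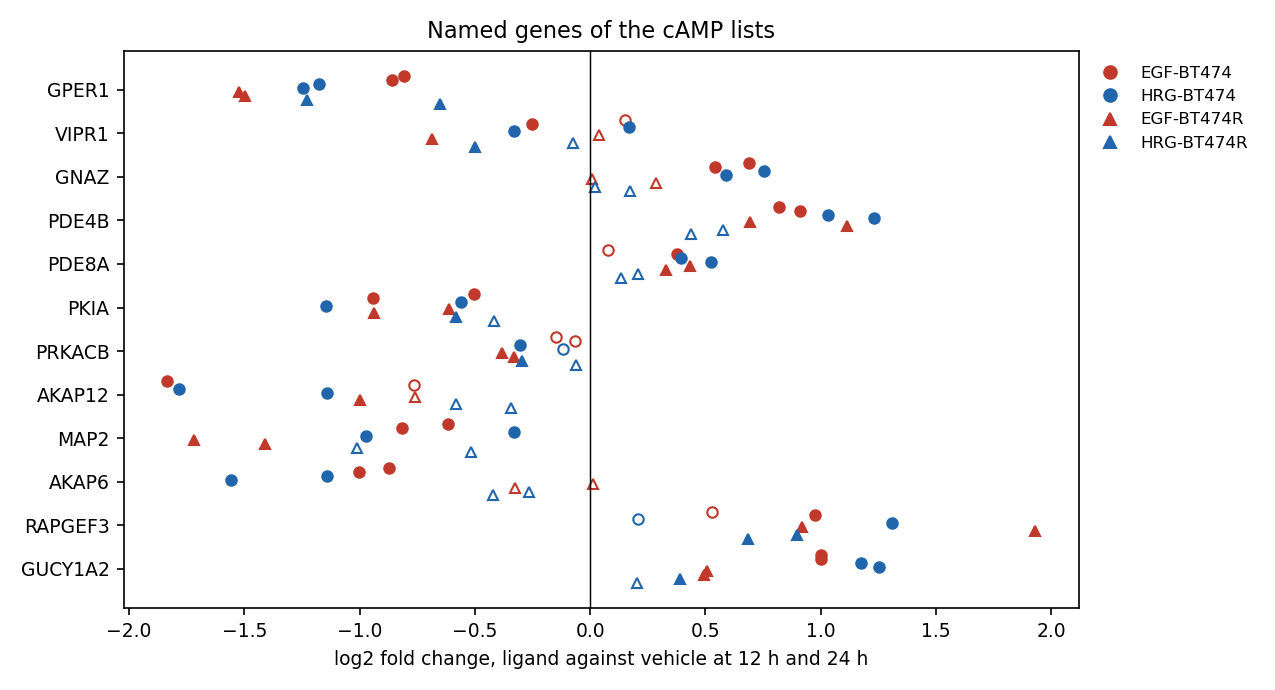
Log2 fold changes of ligand against vehicle at 12 h and 24 h are shown for the 12 named genes of the cAMP lists, circles for BT474 and triangles for BT474R, red for EGF and blue for HRG, filled where edgeR made a call. GPER1 lies below 0 in all 8 comparisons (-0.65 to -1.52), and GUCY1A2 above 0 in all 8 (0.20 to 1.25).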

How the data were processed

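The 40 RNA libraries (2 per group) were deposited as raw counts per gene. For these the authors processed paired-end reads with FastQC 0.11.8, MultiQC, Trim Galore 0.6.6 and Rsubread 2.6.4 (featureCounts) on GRCh38.p13. Annotation release, strand setting and the handling of reads with several matches are not given in the sources used here, so reads shared by paralogs or by genes on opposite strands may be misassigned. Totals were 19200632 to 29098915 counts in BT474 and 16794594 to 33387936 in BT474R, and 3 counts were taken as the detection limit (counting error only).

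Library sizes were scaled with TMM, and tests were edgeR 4.0.16 quasi-likelihood F tests (R 4.3.3) with Benjamini-Hochberg adjustment and a threshold of 0.05: 1 fit per line (25146 and 24287 genes with at least 1 count in 50% of libraries) and 1 fit of all libraries (24641 genes) for comparisons between lines. SE is the log2 change divided by the root of F. A prior count of 2 was used for log2 CPM. On simulated data for EGF-BT474 at 24 h (25146 genes), 80.6%, 88.1% and 100% of genes changed by 0.5, 1 and 2 (log2) were called. The changed genes were drawn only from genes above a floor on mean counts, so these rates do not cover low genes such as ADCY4 and ADCY8. The simulated spread followed the dispersion trend, with none particular to a gene, so the rates may be too high for real genes. Alternatives were DESeq2 1.42.0, its size factors, filterByExpr, no filter, a replicate block, fewer libraries, and leaving out single libraries with the dispersion trend of the full fit held. Summing both ADCY4 rows was added after seeing the data. A gene of the leukocyte marker list is not reported here and was left out of its sum.

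The members, lists and tests were chosen with earlier results of these data known. Named were all 9 members, per list up to 3 genes with the largest mean change at 12 h and 24 h (mean of at least 1 CPM, called in at least 4 of 8), the 5 genes most like ADCY2, and its nearest coding neighbours.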

Additional observations from a re-analysis of the deposited data

How the results depend on the processing

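The calls of single cyclases numbered 26 over the comparisons, with 260 alternative values, of which 225 kept direction and call, 35 lost the call and 0 changed direction. The ADCY2 changes at 12 h and 24 h kept their sign under every alternative, and ran from -1.92 to -1.70 in EGF-BT474R and from -1.15 to -0.82 in HRG-BT474R at 12 h, and from -0.33 to 0.053 in HRG-BT474 at 1 h, as single libraries were left out. Within each group, the log2 CPM difference between its 2 libraries, in the order of their numbers, was taken for every gene with a mean of at least 1 CPM. Over 45 pairs of groups, the correlation of these differences ran from -0.0773 to 0.302 in BT474 (median 0.0207, 8 pairs over 0.1). In BT474R it ran from -0.232 to 0.427 (median -0.0236, 13 pairs over 0.1). Pairs of groups within a time point were not separated from pairs between times. Whether libraries with the same number were handled together at one time was thus not settled. The replicate block is given only here. With it, 2 cyclases other than ADCY2 were called for vehicle 24 h against T0 in BT474 (1 in the fit reported). In EGF-BT474R at 1 h, 1 list gene was called (0 in the fit reported). Both counts were the same with no filter and with only the libraries compared. No other count of calls moved by over 1.5 times under the block.

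With only the libraries of the groups compared, 25 list genes were called in EGF-BT474 at 12 h, 1 in EGF-BT474R and 1 in HRG-BT474R at 1 h, and 0 in HRG-BT474R at 24 h, where 0 cyclases remained called as well. The HRG and EGF comparison in BT474R at 24 h then gave 0 cyclases, and the EGF difference between lines at 12 h gave 1. With no filter, 1 list gene was called in EGF-BT474R and 1 in HRG-BT474R at 1 h, and 9 in HRG-BT474R at 24 h. The cyclase counts were then 1 in HRG-BT474R at 12 h, 1 for HRG against EGF in BT474R at 12 h, and 1 for the HRG difference between lines at 24 h. DESeq2 gave 1 for vehicle 24 h against T0 in BT474R. The causes were not tested.

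As single libraries were left out, the cyclases called ran from 1 to 2 in EGF-BT474 at 12 h, 1 to 3 in EGF-BT474 at 24 h, 1 to 2 in EGF-BT474R at 12 h and 0 to 4 in HRG-BT474R at 24 h. For HRG against EGF at 24 h they ran from 0 to 1 in BT474 and 1 to 2 in BT474R, for vehicle 24 h against T0 from 0 to 1 in BT474 and 1 to 2 in BT474R, and for the HRG difference between lines at 24 h from 0 to 2. The list genes called ran from 9 to 15 in EGF-BT474 and 18 to 23 in HRG-BT474 at 12 h, 8 to 12 in EGF-BT474R and 3 to 5 in HRG-BT474R at 12 h, and 16 to 29 in EGF-BT474R and 1 to 18 in HRG-BT474R at 24 h. A group reduced to 1 library was assumed to vary like the others. With 2 libraries per group and under 30 counts for ADCY2 at its lowest, small differences between low values were not resolved.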

Other observations

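The ADCY6 level was also lower at 1 h than at T0, in vehicle as well as in ligand groups. In BT474 it was at 96.9 and 102.4 CPM at T0 and between 69.8 and 79.9 CPM in the 6 libraries at 1 h, below T0 in each. In BT474R it was at 105.9 and 110.7 CPM at T0 and between 76.0 and 90.2 CPM in the 6 libraries at 1 h. No test of 1 h against T0 was made.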
